A study of Mus musculus with 3 samples.

Results

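CD8 T cells of the mouse glioblastoma microenvironment were 151 of the 4269 cells kept from 3 single-cell RNA-seq libraries. A cell was kept when at least 200 genes were detected in it and no more than 20% of its unique molecular identifiers (UMIs, which count captured mRNA molecules) were mitochondrial. A cell barcode that also stood in another library was dropped unless its UMIs were at least 5 times those of the other copy. A kept cell was a CD8 T cell when it held at least 1 UMI of *Cd3d*, *Cd3e* or *Cd3g*, which encode chains of the T cell receptor complex, at least 1 UMI of *Cd8a* or *Cd8b1*, which encode the chains of the CD8 co-receptor, and none of *Csf1r*, the receptor that marks microglia and macrophages. The members were thus chosen by the UMIs of these 6 genes, whose levels are described here and not tested.

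The libraries were made from leukocyte-enriched, live-sorted brain tissue of female C57BL/6 wild-type mice aged 6 to 8 weeks, taken from a 2 mm section around the site where the tumor cells had been injected. All mice had received an intracranial implant of BTIC0309, a line of brain tumor-initiating cells from NPcis (*Trp53*+/- *Nf1*+/-) mice that carries luciferase and GFP, and the brains were collected 4 weeks later. Niacin (vitamin B3) was injected into the peritoneum daily at 100 mg/kg from day 7 in the niacin group (libraries niacin 1 and niacin 2), and saline in the vehicle group (library vehicle 2). Each library pooled 4 brain tissues according to the labels, which also state 5 mice for the vehicle group and 10 for the niacin group. The tumors all come from 1 line, and with 1 vehicle library no test between treatments was run.

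CD8 T cells recognize peptides shown on MHC class I molecules and kill the cell that shows them by releasing perforin and granzymes from cytotoxic granules. They also secrete chemokines such as CCL5 and the cytokine interferon-γ. In the brain, some remain as tissue-resident memory cells, known by the integrins CD103 (*Itgae*) and CD49a (*Itga1*), by CD69 and by the chemokine receptor CXCR6. Natural killer (NK) cells use the same granule proteins but recognize targets through germline-encoded receptors rather than a T cell receptor.

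The CD8 T cells numbered 43 in vehicle 2, 57 in niacin 1 and 51 in niacin 2. Their median depth was 6220, 5779 and 7218 UMIs, in that order, and the median number of genes was 2215, 2050 and 2230. Single cells ranged from 912 to 16103 UMIs. Summed over the class, the libraries held 259703, 288685 and 372620 UMIs of CD8 T cells, so that 3 UMIs, the limit that a count of 0 allows, were worth 11.6, 10.4 and 8.05 UMIs per 1000000 (CPM). Every CPM value below is a share of the UMIs of the named cell class in 1 library, and its 95% interval is an exact Poisson interval that covers counting error only.

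The vehicle library stood apart in several respects. Ribosomal protein genes took 23.1% of the UMIs of its CD8 T cells, against 28.0% and 31.5% in niacin 1 and niacin 2. Its kept cells included 52 NK cells (*Ncr1* or *Klrb1c* UMIs without *Cd3*, *Cd8a*, *Cd8b1* or *Csf1r*), against 6 and 11. Markers of other cells were also unequal in the CD8 T cells: 5 erythroid marker genes summed to 23.1, 842 and 306 CPM. Of 8 NK marker genes, the 7 other than *Gzma*, which cytotoxic T cells also use, summed to 246, 34.6 and 37.6 CPM, against 4081, 5475 and 3996 CPM in NK cells. The part of these differences in the results below was not tested unless a value says so. Of the 151 members, 26 carried a barcode that was also present in another library (4, 15 and 7), and results that moved without them are given below.

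CD8 T cells took a smaller share of the Cd3+ cells in vehicle 2 than in the niacin libraries, while their shares of all kept cells had overlapping intervals. CD8 T cells were 3.40% of kept cells in vehicle 2 (exact binomial 95% interval 2.47 to 4.56), 4.04% in niacin 1 (3.07 to 5.20) and 3.20% in niacin 2 (2.39 to 4.19). Among cells with a *Cd3* UMI and no *Csf1r*, CD8 T cells were 20% in vehicle 2 (14.9 to 26.0), 40.1% in niacin 1 (32.0 to 48.7) and 35.2% in niacin 2 (27.4 to 43.5). The vehicle interval lay below both niacin intervals. Among CD8 and CD4 T cells alone (CD4 T cells: *Cd3* and *Cd4* UMIs, no *Cd8a*, *Cd8b1* or *Csf1r*), the shares were 41.0% (31.5 to 51.0), 60.6% (50.02 to 70.6) and 56.7% (45.8 to 67.1), and these intervals overlapped. The remaining Cd3+ cells had neither *Cd8* nor *Cd4* UMIs and numbered 110, 48 and 55. The plot of the shares shows each value with its counts.

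**Figure D1:**
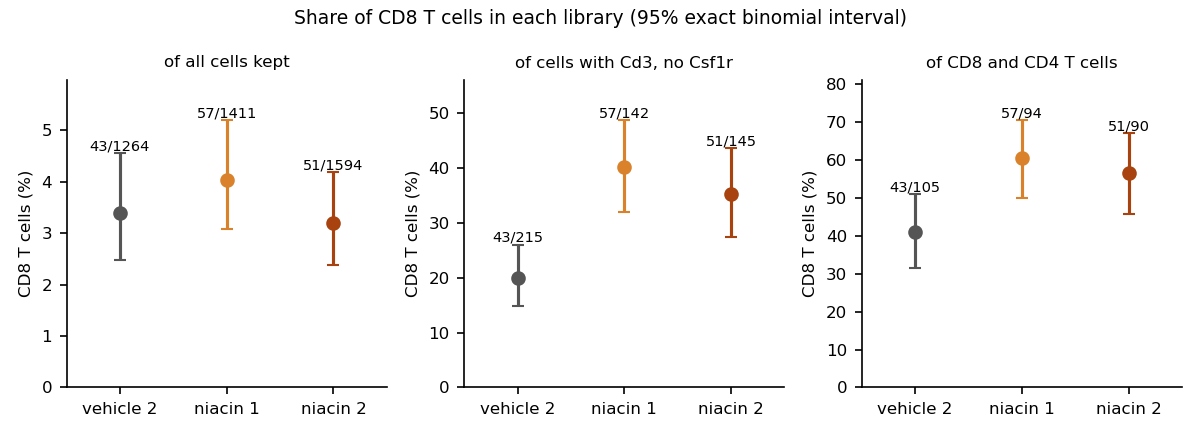
Share of CD8 T cells (percent, linear axis from 0) among all kept cells, among Cd3+ cells without *Csf1r*, and among CD8 and CD4 T cells, for each of the 3 libraries. Points are shares, bars are exact binomial 95% intervals and the counts stand above the points; the share of Cd3+ cells was 20% in vehicle 2 and 40.1% and 35.2% in niacin 1 and niacin 2.

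Most members held more than the minimum of marker UMIs. Of the 151 cells, 106 had at least 4 *Cd8a* and *Cd8b1* UMIs together, and 23 had exactly 1 (11, 9 and 3 by library). Both CD8 chains were detected in 110 cells, *Cd8a* alone in 23 and *Cd8b1* alone in 18. *Cd8a* (chromosome 6, 71373427 to 71379173, plus strand, in GRCm38) stood at 774, 797 and 880 CPM in vehicle 2, niacin 1 and niacin 2. Its neighbor *Cd8b1* (chromosome 6, 71322788 to 71337494, plus strand) stood at 443, 1257 and 1291 CPM, lower in the vehicle library. The *Cd8b1* level in Csf1r+ cells, which should lack it, was between 1.0 and 1.8 CPM.

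Beyond the 213 cells with *Cd3* UMIs but no *Cd8*, *Cd4* or *Csf1r*, whose identity was not tested, cells just outside the rule were few. A further 28 cells had *Cd3* and *Cd8* UMIs but also *Csf1r*, of which 22 held exactly 1 *Csf1r* UMI, and 8, 1 and 2 cells had a *Cd8* UMI, no *Cd3* and no *Csf1r*. Inside it, transcripts of the conventional αβ T cell receptor (*Trac*, *Trbc1* or *Trbc2*) were found in 147 of 151 cells. *Cd4* was found in 6 members, and *Ncr1*, *Klrb1c* or *Trdc*, genes of NK and γδ T cells, in 9 (7 in vehicle 2, 1 in each niacin library). The markers of microglia and B cells *P2ry12*, *Tmem119* and *Cd79a* were found in 5, 7 and 7 members, and the summed level of 8 microglial markers was 131, 146 and 209 CPM in CD8 T cells against 8633, 17970 and 18280 CPM in Csf1r+ cells.

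The 2 markers that had no part in the rule behaved unlike each other. *Ccl5*, a chemokine of activated T and NK cells, stood at 2203 CPM in vehicle 2, 3509 in niacin 1 and 4981 in niacin 2. *Gzmb*, which encodes granzyme B, stood at 836, 65.8 and 53.7 CPM. With each cell thinned to 1000 UMIs, which left out 1 shallower vehicle cell, *Ccl5* was detected in 50%, 61.4% and 78.4% of CD8 T cells, and in 7.65%, 1.62% and 1.26% of Csf1r+ cells, whose median depth before thinning was 5881, 5031 and 5062 UMIs. At 2000 UMIs, which left out 9, 22 and 5 cells, the *Ccl5* shares were 82.4%, 82.9% and 82.6%. Without thinning, *Gzmb* was detected in 26 of 43, 8 of 57 and 8 of 51 cells.

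To find how the CD8 T cells differed from the CD4 T cells of the same libraries, the UMIs of each class were summed per library and compared in edgeR's quasi-likelihood test with the library as a block. The CD4 T cells numbered 62, 37 and 39. Of 4091 genes that passed the filter on low counts, 63 were higher (1.54%) and 84 lower (2.05%) in CD8 T cells at an adjusted p under 0.05, and 144 of these 147 had the same direction in all 3 libraries. Together 3.59% of the genes tested were called. Without the block, which is the pairing of the 2 sums of a library, 40 genes were called, all of them among the 147. Each library is a pool of mice and the 3 libraries mix treatments, so the p-values measure the spread of the paired difference over 3 pools.

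**Figure D2:**
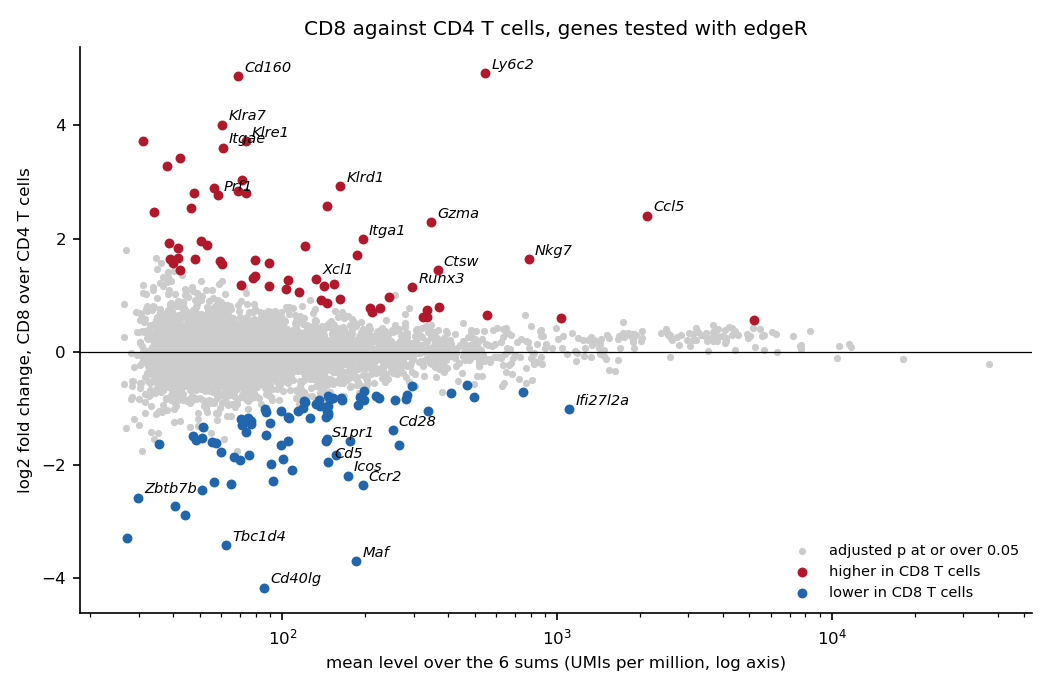
The log2 fold change of CD8 over CD4 T cells (vertical axis) against the mean level over the 6 sums in CPM (horizontal axis, log scale) for the 4091 genes tested; colored points are genes with an edgeR adjusted p under 0.05. The 63 higher genes include *Ly6c2*, *Itgae* and *Ccl5*, and the 84 lower genes include *Cd40lg* and *Maf*.

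Several genes of cytotoxic granules and killing were higher in CD8 than in CD4 T cells. Of 17 listed genes, 11 were tested, 6 were higher and none was lower, with a median log2 fold change of 1.45 over those tested against 0.00 over all genes. *Prf1* and *Gzmk* were low in CD4 T cells and passed the filter on low counts through their CD8 levels. Their direction was thus largely set by the filter, and the count and the median are not a result about the group. *Prf1*, perforin (chromosome 10, 61297833 to 61304680, plus strand), stood at 112, 104 and 91.3 CPM in CD8 T cells and at 30.3, 11.5 and 0 CPM in CD4 T cells. Its log2 fold change was 2.77 ± 0.44 (SE, n = 3 libraries, edgeR adjusted p = 0.000292), and the classes did not overlap. *Nkg7*, a granule membrane protein, stood at 870, 1088 and 1471 CPM against 145, 390 and 765 CPM (1.64 ± 0.21, edgeR adjusted p = 2.49e-05). *Ctsw*, cathepsin W, was higher by 1.45 ± 0.19, and *Fasl*, the death ligand that acts through Fas, by 1.58 ± 0.29.

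The granzymes were less uniform. *Gzmk* was higher by 1.57 ± 0.44 with an edgeR adjusted p of 0.0483, at 50.1, 58.9 and 72.5 CPM against 33.3, 11.5 and 13.8 CPM. *Gzma* passed the test at 2.28 ± 0.34, but its CD8 levels of 1321, 34.6 and 303 CPM overlapped the CD4 levels of 421, 0 and 0 CPM, and DESeq2 gave it an adjusted p of 0.64. *Gzmb* did not pass (1.00 ± 0.32, edgeR adjusted p = 0.0989), at 836, 65.8 and 53.7 CPM against 585, 0 and 0 CPM. *Ifng*, the gene of interferon-γ, did not differ beyond the spread (-0.13 ± 0.31, edgeR adjusted p = 0.907), with 92.4, 114 and 53.7 CPM in CD8 T cells.

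Receptors best known from NK cells were higher in CD8 T cells as well. Of 18 listed genes 8 were tested and 7 were higher, none lower, with a median log2 fold change of 2.91. *Klrc1*, *Klrc2*, *Klra7* and *Klre1* were low in CD4 T cells and passed the filter on low counts through their CD8 levels. Their direction was thus largely set by the filter, and the count and the median are not a result about the group. *Klrd1* encodes CD94, which pairs with NKG2 proteins to bind a non-classical MHC class I molecule. It stood at 266, 284 and 301 CPM in CD8 T cells and at 15.1, 45.9 and 64.5 CPM in CD4 T cells (2.93 ± 0.29, edgeR adjusted p = 8.75e-07). Its partner *Klrc1* (NKG2A) was higher by 3.29 ± 0.51, *Klrc2* (NKG2C) by 2.89 ± 0.41 and *Klrk1*, the activating receptor NKG2D, by 1.87 ± 0.27. *Klra7*, an inhibitory Ly49 receptor, stood at 181, 69.3 and 93.9 CPM against 18.2, 0 and 0 CPM, and *Klre1* at 220, 128 and 67.1 CPM against 27.3, 0 and 0 CPM.

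Of the 7 higher genes, the 6 *Klr* genes lie together on chromosome 6 in GRCm38, from *Klre1* at 129577905 to 129585827 (plus strand) through *Klrd1* at 129591782 to 129598775 (plus strand) to *Klra7* at 130218605 to 130233322 (minus strand). Near-identical genes stand side by side there, so the split of reads among *Klra* and *Klrc* members is uncertain. *Klrd1* was found in 79 CD8 T cells, of which 69 also held *Trac*. NK marker RNA was measured beside this group: the 7 NK markers other than *Gzma* summed to 246, 34.6 and 37.6 CPM in CD8 T cells and to 21.2, 11.5 and 4.61 CPM in CD4 T cells. With the 9 members holding *Ncr1*, *Klrb1c* or *Trdc* left out, an alternative added after seeing the data, *Klrd1* and *Klre1* still passed the test.

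Chemokine, residency and memory genes moved in both directions. Of 15 chemokine and receptor genes 11 were tested, 4 were higher and 2 lower. *Ccl5* (chromosome 11, 83525778 to 83530518, minus strand) at 2203, 3509 and 4981 CPM was above the 703, 402 and 958 CPM of CD4 T cells (2.40 ± 0.20, edgeR adjusted p = 6.07e-08). *Ccl4* and *Xcl1*, a chemokine that attracts cross-presenting dendritic cells, were also higher, by 1.61 ± 0.43 and 1.29 ± 0.27. *Ccr2*, which guides cells along CCL2, was lower at 84.7, 65.8 and 37.6 CPM against 318, 379 and 290 CPM, as was *S1pr1*, the receptor for exit from tissue, at 80.9, 76.2 and 51.0 CPM against 303, 166 and 184 CPM. *Cxcr6* did not pass the test (0.36 ± 0.17, edgeR adjusted p = 0.349), nor did *Cxcr3* (0.32 ± 0.20, edgeR adjusted p = 0.545).

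Of 14 residency genes 11 were tested, 4 were higher and 1, *Rgs2*, was lower. *Itgae*, the α chain of CD103, stood at 119, 104 and 115 CPM in CD8 T cells and at 15.1, 5.74 and 4.61 CPM in CD4 T cells, a log2 fold change of 3.60 ± 0.42 (edgeR adjusted p = 6.93e-06). It passed the filter on low counts through its CD8 levels, which largely set its direction. *Itga1* stood at 300, 353 and 282 CPM against 75.7, 34.4 and 129 CPM (1.99 ± 0.26). *Itga1* was found in 28 of the 42 CD8 T cells that held *Itgae*, and in 56 further cells. *Runx3*, a transcription factor of the CD8 lineage, was higher by 1.14 ± 0.17.

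*Ly6c2* gave the largest log2 fold change among the genes named by rule. It encodes a surface protein of memory CD8 T cells and of monocytes, and lies on chromosome 15 (75108158 to 75111970, minus strand). It stood at 1178, 1001 and 1001 CPM in CD8 T cells and at 45.4, 17.2 and 41.5 CPM in CD4 T cells (4.93 ± 0.23, edgeR adjusted p = 2.0e-12). It was the only call among 9 listed monocyte and macrophage markers, of which 2 were tested, and reads of the close paralog *Ly6c1* could not be told apart from those of *Ly6c2* with certainty. Of the 16 naive and memory genes 11 were tested, with only *Ly6c2* higher and *S1pr1* lower, and *Il7r*, the receptor of interleukin-7, stood at 439, 883 and 658 CPM against 769, 1251 and 871 CPM without passing the test (edgeR adjusted p = 0.0727).

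**Figure D3:**
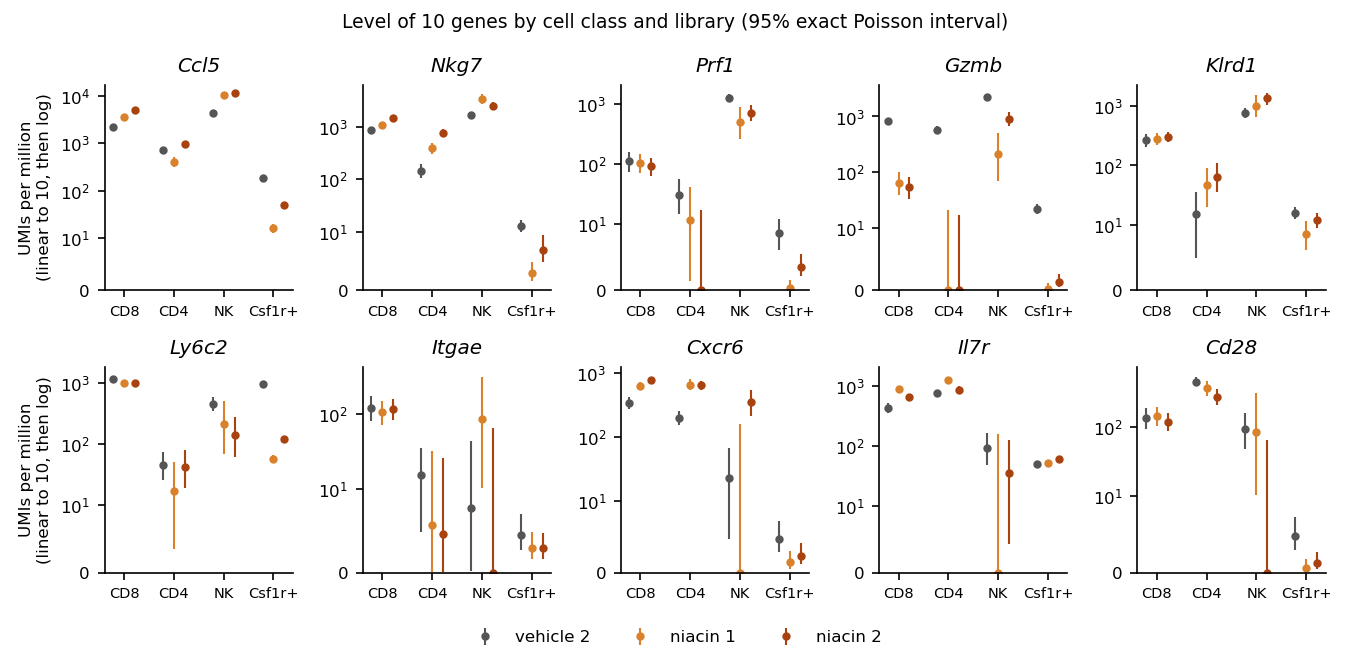
Levels of 10 genes in CPM (axis linear to 10, then logarithmic) in CD8 T cells, CD4 T cells, NK cells and Csf1r+ cells, 1 point per library with exact Poisson 95% intervals. *Ly6c2*, *Itgae*, *Klrd1* and *Prf1* were higher in CD8 than in CD4 T cells in every library, *Cd28* was lower in every library, and in CD8 T cells *Gzmb* differed most between the libraries among the 10 genes.

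Among inhibitory receptors and exhaustion genes, *Cd160* and *Nr4a2* were higher and none of the 8 tested of 20 listed was lower. Both higher genes were low in CD4 T cells and passed the filter on low counts through their CD8 levels, which largely set their direction. *Cd160*, a receptor for HVEM, stood at 112, 107 and 177 CPM against 0, 17.2 and 0 CPM (4.86 ± 0.56, edgeR adjusted p = 6.93e-06), a call that DESeq2 did not make (adjusted p = 0.085). *Pdcd1*, which encodes PD-1, was low at 50.1, 31.2 and 18.8 CPM, in 6 cells of each library. *Lag3* stood at 11.6, 38.1 and 24.2 CPM, *Ctla4* at 127, 90.1 and 53.7 CPM, and *Tox* at 69.3, 52.0 and 80.5 CPM. *Ctla4* and *Tox* did not pass the test against CD4 T cells (edgeR adjusted p = 0.0721 and 0.954).

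Several helper, regulatory and costimulatory genes were lower in CD8 T cells. Of 17 helper and regulatory genes 14 were tested, 9 were lower and none was higher, with a median log2 fold change of -1.67. *Cd40lg*, *Maf* and *Zbtb7b* were low in CD8 T cells and passed the filter on low counts through their CD4 levels. Their direction was thus largely set by the filter, and the count and the median are not a result about the group. *Cd40lg*, the ligand through which helper T cells activate B cells and dendritic cells, stood at 0, 3.46 and 18.8 CPM against 69.7, 258 and 166 CPM (-4.16 ± 0.44, edgeR adjusted p = 2.76e-06). *Maf* stood at 50.1, 3.46 and 21.5 CPM against 521, 298 and 217 CPM (-3.70 ± 0.30), and *Zbtb7b*, the factor that commits thymocytes to the CD4 lineage, at 15.4, 0 and 8.05 CPM against 51.5, 63.1 and 41.5 CPM (-2.57 ± 0.63). *Icos*, *Izumo1r*, *Tnfrsf4*, *Capg*, *Gata3* and *Tnfrsf18* were the other 6. With the Foxp3+ cells left out of the CD4 T cells, an alternative added after seeing the data, 5 named calls were lost, those on *Izumo1r*, *Tnfrsf18*, *Ccl4*, *Gzmk* and *Tpi1*.

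Of 18 genes of T cell receptor signaling, all were tested, 5 were lower and *Trbc1* was higher (0.65 ± 0.17). The 5 were *Cd40lg*, *Icos*, *Cd5*, *Cd28* and *Cd6*. *Cd28*, the main costimulatory receptor, stood at 135, 146 and 121 CPM against 460, 373 and 276 CPM (-1.38 ± 0.19, edgeR adjusted p = 5.1e-05). *Cd5*, a negative regulator of receptor signals, stood at 27.0, 55.4 and 91.3 CPM against 191, 264 and 253 CPM.

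The other groups held few calls. In simulated data the test recovered 4 of 50 genes changed 2-fold, so a gene not called may still differ by that much. All 10 MHC class I genes were tested and none was called, and the same was so for the 5 tested of 18 cell cycle genes and the 3 tested of 13 genes of niacin sensing and NAD metabolism. Of 21 interferon response genes 20 were tested, with *Ifit3* higher (1.30 ± 0.34) and *Ifi27l2a* lower (-1.02 ± 0.18). *Tpi1* alone of 13 tested glycolysis genes was lower, as were *Il6ra* and *Il18r1* of 12 tested cytokine receptor genes, and of 2 tested genes of unconventional T cells *Tcrg-C2* was higher. *Il6ra* passed the filter on low counts through its CD4 levels and *Tcrg-C2* through its CD8 levels, which largely set their direction. *Hcar2*, which encodes the high-affinity niacin receptor, had no UMI in CD8 T cells of any library, whereas Csf1r+ cells held 43.2, 19.9 and 15.3 CPM.

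Several calls rested on 1 library or on the block. Without niacin 2, 52 genes were called, 50 of them among the 147, and calls were lost that included *Capg*, *Ccl4*, *Cd6*, *Fasl*, *Gata3*, *Gzmk*, *Ifi27l2a*, *Ifit3*, *Il18r1*, *Izumo1r*, *Rgs2*, *Tcrg-C2*, *Tnfrsf18*, *Tpi1*, *Trbc1* and *Zbtb7b*. Without niacin 1 the call on *Xcl1* and 7 of these were lost, and without vehicle 2 the calls on *Gata3*, *Izumo1r*, *Rgs2*, *Tmem64* and *Tnfrsf18*. Without the block, *Nkg7*, *Ctsw*, *Fasl*, *Runx3*, *Gzma*, *Gzmk*, *Ccl4*, *Xcl1*, *Nr4a2*, *Tnfrsf4* and *Zbtb7b* no longer passed, among 23 named genes. DESeq2 called 40 genes and did not call *Gzma*, *Cd160*, *Nr4a2*, *Fasl*, *Xcl1*, *Icos* or *Zbtb7b*, among 21 named genes. *Ly6c2*, *Klrd1*, *Itgae*, *Itga1*, *Ccl5*, *Prf1*, *Cd40lg*, *Maf*, *Ccr2* and *Cd28* passed in all of these.

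The comparison with NK cells asked which features of the CD8 T cells set them apart from the other cytotoxic lymphocytes. The NK cells numbered 52, 6 and 11, with a median of 1534, 2000 and 5759 UMIs per cell. In vehicle 2 their UMIs were 8.08% mitochondrial and 8.57% ribosomal, against 6.68% and 23.1% in CD8 T cells, and in the niacin libraries 5.54% and 4.20% mitochondrial and 21.9% and 24.1% ribosomal, against 6.09% and 5.17% and 28.0% and 31.5%. The part of these differences in the comparison was not tested. Of 3118 genes tested, 120 were higher (3.85%) and 112 lower (3.59%) in CD8 T cells in the same kind of edgeR fit, together 7.44%. Without the block 109 genes were called, with every shared barcode dropped 114, without vehicle 2, which held 52 of the 69 NK cells, 103, without niacin 2 128, and without niacin 1 156.

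Perforin, granzymes A and B and granzyme inhibitors were lower in CD8 T cells than in NK cells. Of 17 cytotoxic genes 11 were tested, 5 were lower and none was higher. *Gzma* stood at 1321, 34.6 and 303 CPM in CD8 T cells and at 9009, 5432 and 4648 CPM in NK cells (-4.08 ± 0.46, edgeR adjusted p = 1.8e-10). *Prf1* stood at 112, 104 and 91.3 CPM against 1257, 513 and 722 CPM (-2.81 ± 0.33). *Gzmb* stood at 836, 65.8 and 53.7 CPM against 2219, 214 and 916 CPM (-2.15 ± 0.38), a call lost without niacin 2 and without the block. The protease inhibitors *Serpinb9* and *Serpinb6b*, which shield killer cells from granzymes, were lower by 3.20 ± 0.35 and 3.95 ± 0.41 on the log2 scale. *Serpinb6b* passed the filter on low counts through its NK levels, which largely set its direction.

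Of 18 NK receptor genes 16 were tested, and 15 were lower and none higher in CD8 T cells. *Klra8*, *Klra4*, *Klra9*, *Klrb1a*, *Klrb1f* and *Klrg1* were low in CD8 T cells and passed the filter on low counts through their NK levels. Their direction was thus largely set by the filter, and the count is not a result about the group. *Klra8* (Ly49H; chromosome 6, 130115226 to 130129898, minus strand) stood at 15.4, 0 and 0 CPM against 947, 2737 and 634 CPM. *Tyrobp*, the adaptor of activating NK receptors, stood at 65.5, 24.3 and 18.8 CPM against 908, 2866 and 3011 CPM. *Klrd1*, although higher than in CD4 T cells, was lower than in NK cells, at 266, 284 and 301 CPM against 776, 1027 and 1356 CPM (-1.66 ± 0.30, edgeR adjusted p = 3.87e-05), a call lost with every shared barcode dropped. The order of *Klrd1* levels was thus NK, CD8 and CD4 T cells, with no overlap between neighbors.

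T cell identity, memory and interferon genes were higher than in NK cells. Of 15 tested genes of T cell receptor signaling 6 were higher, among them *Trac* at 489, 634 and 668 CPM against 7.76, 0 and 17.6 CPM. *Bcl11b*, a factor of T cell commitment, stood at 416, 433 and 411 CPM against 7.76, 0 and 0 CPM (6.43 ± 0.67). *Trac* and *Bcl11b* were low in NK cells and passed the filter on low counts through their CD8 levels, which largely set their direction. *Il7r* was higher by 3.36 ± 0.44, and *Tcf7* and *Lef1*, factors of naive and memory T cells, by 1.74 ± 0.45 and 1.59 ± 0.51. *Cxcr6* stood at 343, 630 and 770 CPM against 23.3, 0 and 352 CPM (2.52 ± 0.42), and *Cxcr3* at 116, 333 and 309 CPM against 31.0, 85.6 and 70.4 CPM (2.19 ± 0.44). Of 18 tested interferon genes 7 were higher, with *Ifi27l2a* by 4.33 ± 0.47.

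Against NK cells the calls on *Cxcr6*, *Tcf7*, *Lef1*, *Cd6*, *P2rx7* and *Fam169b* were lost without vehicle 2, that on *Lef1* also without niacin 1 and without niacin 2, and those on *Cxcr6*, *Tcf7* and *Lef1* also without the block. *Fam169b*, *Cd6* and *P2rx7* had no UMI in NK cells of any library, so they passed the filter on low counts through their CD8 levels. In niacin 1 the 6 NK cells held 23379 UMIs, so that 3 UMIs there were worth 128 CPM.

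Between niacin and vehicle, the CD8 T cells were compared without a test. Of 5532 genes with at least 20 UMIs in CD8 T cells, 179 were at least 2-fold higher (3.24%) and 354 at least 2-fold lower (6.40%) in both niacin libraries than in vehicle 2, together 9.63%. The median log2 ratio of all these genes was -0.13 in niacin 1 and -0.19 in niacin 2. With the ratios centered on these medians, 295 were higher and 229 lower, so the excess of lower genes depended on the scale. The counting intervals below do not include the spread between pools of mice, which was not estimated from 1 vehicle library.

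Granzymes A and B carried the largest differences among the cytotoxic genes, while perforin and *Nkg7* did not pass 2-fold. Of 12 genes counted, *Gzma*, *Gzmb* and *Serpinb9* were past 2-fold lower and none was past 2-fold higher. *Gzmb* (chromosome 14, 56258838 to 56262260, minus strand) stood at 836 CPM in vehicle 2 (728 to 955), 65.8 in niacin 1 (39.6 to 103) and 53.7 in niacin 2 (32.8 to 82.9), log2 ratios of -3.63 and -3.93. *Gzma* (chromosome 13, 113093825 to 113100981, minus strand) stood at 1321 (1185 to 1468), 34.6 (16.6 to 63.7) and 303 CPM (250 to 365). *Prf1* stood at 112 (74.8 to 160), 104 (70.1 to 148) and 91.3 CPM (63.2 to 128), with overlapping intervals, and *Nkg7* at 870, 1088 and 1471 CPM.

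The *Gzmb* difference was carried by many cells and the *Gzma* level in niacin 2 by few. With cells thinned to 1000 UMIs, *Gzmb* was detected in 33.3%, 5.26% and 1.96% of CD8 T cells. *Gzma* was found in 21 of 43, 5 of 57 and 7 of 51 CD8 T cells, and 78 of its 113 UMIs in niacin 2 stood in 1 cell. *Gzmb* RNA was also present in cells that should lack it: Csf1r+ cells held 22.3, 0.2 and 1.3 CPM, and after thinning 2.83%, 0% and 0% of them had a UMI. The CD4 T cells, from the same libraries, stood at 585, 0 and 0 CPM of *Gzmb*. Of the 42 CD8 T cells with *Gzmb*, 34 also held *Cd8b1*.

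The NK markers other than *Gzma* were also higher in the CD8 T cells of vehicle 2, at 246 CPM (190 to 315) against 34.6 (16.6 to 63.7) and 37.6 CPM (20.5 to 63.0). All 7 had a UMI in vehicle 2, and 1 and 2 of 7 in niacin 1 and niacin 2. *Eomes*, a factor that CD8 T cells also express, made up 104, 34.6 and 32.2 CPM of these sums, and *Ncr1* and *Klrb1c* were at 0 in both niacin libraries. With the 9 members holding *Ncr1*, *Klrb1c* or *Trdc* left out, *Gzmb* stood at 803, 67.8 and 54.6 CPM and *Gzma* at 1089, 35.7 and 309 CPM. Among members with *Cd8b1* only, *Gzmb* stood at 912, 74.6 and 56.2 CPM, and with every shared barcode dropped at 985, 19.6 and 52.5 CPM.

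**Figure D4:**
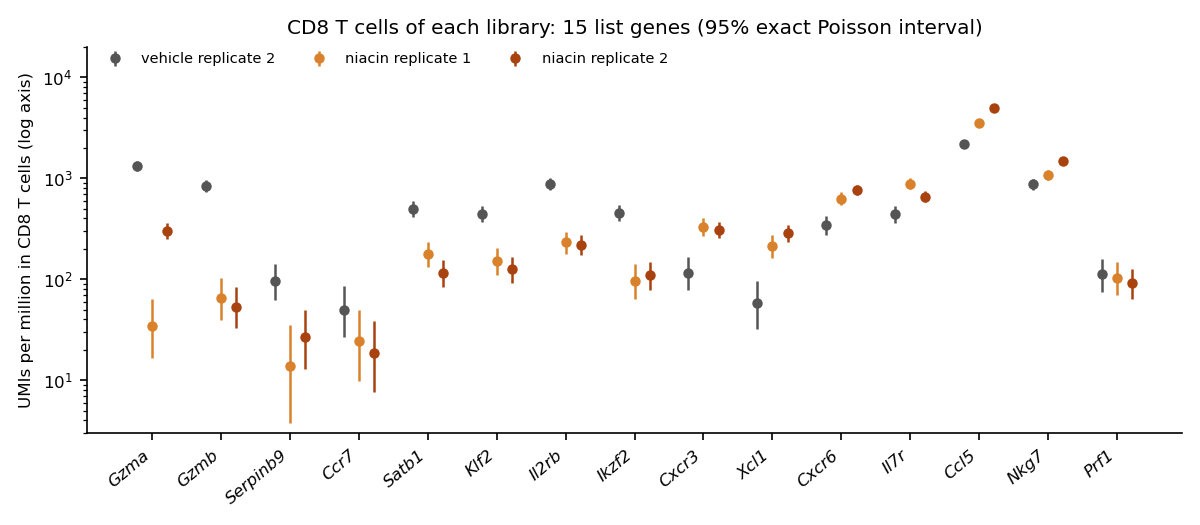
Levels of 15 listed genes in CD8 T cells in CPM (log axis) in vehicle 2, niacin 1 and niacin 2, with exact Poisson 95% intervals. *Gzma*, *Gzmb*, *Serpinb9*, *Ccr7*, *Satb1*, *Klf2*, *Il2rb* and *Ikzf2* were at least 2-fold lower in both niacin libraries, *Cxcr3* and *Xcl1* at least 2-fold higher, and *Cxcr6*, *Il7r*, *Ccl5*, *Nkg7* and *Prf1* did not pass 2-fold in both.

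Several genes of lymph node homing and quiescence were lower in both niacin libraries. Of 15 naive and memory genes counted, 6 were past 2-fold lower and none was past 2-fold higher. *Klf2*, a factor that maintains *S1pr1* expression, stood at 447, 152 and 126 CPM, and *Satb1*, a chromatin organizer of T cells, at 501, 177 and 115 CPM. *Ccr7*, the receptor for homing to lymph nodes, *Bach2* and *Id3* were also among them, with 10 of the 18 *Id3* UMIs of vehicle 2 in 1 cell. *Klf2* was carried in part by members with NK or γδ genes: without them it stood at 205, 157 and 128 CPM and was no longer past 2-fold. Without the same members *Id3* stood at 33.4, 7.13 and 5.46 CPM, from 7, 2 and 2 UMIs. *Lef1* at 131, 170 and 99.3 CPM and *Tcf7* at 297, 142 and 153 CPM were not past 2-fold lower in both.

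Chemokine receptors of inflamed tissue pointed the other way. *Cxcr3*, the receptor for the interferon-induced chemokines CXCL9 and CXCL10, stood at 116 (77.9 to 165), 333 (269 to 406) and 309 CPM (255 to 371). *Xcl1* stood at 57.8 (32.3 to 95.3), 211 (162 to 271) and 287 CPM (235 to 347). These were the 2 genes past 2-fold higher among 12 chemokine genes counted, against *Ccr7* lower. *Cxcr6* stood at 343, 630 and 770 CPM, log2 ratios of 0.88 and 1.16, and was detected in 21 of 43, 46 of 57 and 44 of 51 cells. Thinned to 1000 UMIs its shares were 16.7%, 49.1% and 49.0%, and under 1% in Csf1r+ cells of each library (0.832%, 0.464% and 0.316%). The CD4 T cells stood at 200, 654 and 640 CPM of *Cxcr6*.

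Of 12 residency genes counted, *Xcl1* was past 2-fold higher and none lower. *Itgae* at 119, 104 and 115 CPM and *Itga1* at 300, 353 and 282 CPM had nearly equal levels in the 3 libraries. *Ly6c2* at 1178, 1001 and 1001 CPM and *Klrd1* at 266, 284 and 301 CPM were as even. The pattern that set CD8 apart from CD4 T cells was thus present at close levels under vehicle and niacin for these 4 genes.

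**Figure D5:**
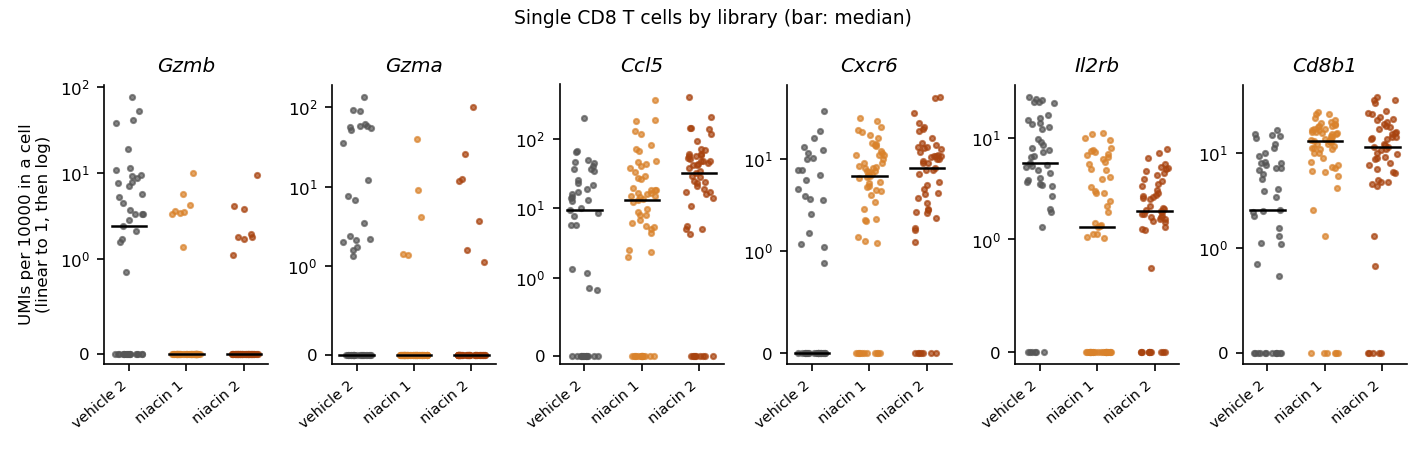
Level of 6 genes in each CD8 T cell, in UMIs per 10000 UMIs of the cell (axis linear to 1, then logarithmic), by library with the median as a bar. The median of *Cd8b1* was 2.54 in vehicle 2, 13.6 in niacin 1 and 11.8 in niacin 2, and that of *Gzmb* was 2.41, 0 and 0.

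Some cytokine receptor and activation genes were lower in both niacin libraries. *Il2rb*, the β chain shared by the receptors of interleukin-2 and interleukin-15, stood at 878 (768 to 1000), 232 (180 to 295) and 220 CPM (175 to 273). It was 1 of 3 genes past 2-fold lower among 12 cytokine receptor genes, with *Il2ra* and *Il18rap*. The CD4 T cells stood at 963, 253 and 212 CPM of *Il2rb*, and NK cells at 2072, 1326 and 1408 CPM. Of 11 checkpoint genes counted *Eomes*, *Nr4a2*, *Nt5e* and *Tnfrsf9* were past 2-fold lower, with *Tnfrsf9* (4-1BB, induced by activation) at 123, 6.93 and 21.5 CPM. *Ikzf2*, a factor of regulatory and some innate-like T cells, stood at 454, 97.0 and 110 CPM.

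Among genes outside the lists, 3 that stood at 0 UMIs in vehicle 2 were found in both niacin libraries. *Stx6*, a syntaxin of the trans-Golgi network, had 12 and 11 UMIs, at least 3.60-fold and 2.56-fold above the level of 3 UMIs in vehicle 2. *Phpt1* had 9 and 11 UMIs and *0610010K14Rik* 9 and 12. *Exosc1*, a subunit of the RNA exosome, had 2, 15 and 18 UMIs and *Bola1* 1, 12 and 15. The hemoglobin genes *Hbb-bs*, *Hba-a1* and *Hba-a2* were the other 3 of the 8 higher genes named by rule. *Hbb-bs* stood at 11.6, 475 and 164 CPM, in 3 of 43, 51 of 57 and 31 of 51 CD8 T cells, and erythroid markers in Csf1r+ cells summed to 220, 9531 and 15340 CPM, and the part of this RNA in the level of CD8 T cells was not tested. Reads of *Hba-a1* and *Hba-a2* cannot be split with certainty.

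The 8 lower genes named by rule were *Hspa1b*, *Hspa1a*, *Dtx1*, *Gzmb*, *Irf8*, *Id3*, *Tgm2* and *D1Ertd622e*. Single cells carried several of them. All 84 *Hspa1b* UMIs of vehicle 2 stood in 1 of 43 cells, as did 30 of its 31 *Hspa1a* UMIs and 26 of its 38 *Irf8* UMIs. With the members holding *Ncr1*, *Klrb1c* or *Trdc* left out, vehicle 2 had 0 UMIs of *Hspa1b*, 1 of *Hspa1a* and 6 of *Irf8*, but 16 of *Dtx1*. *Hspa1a* and *Hspa1b* are inducible heat shock proteins. *Dtx1*, a regulator of Notch signaling linked to T cell anergy, had 22, 1 and 0 UMIs, in 9 of 43 vehicle cells.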

How the data were processed

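Gene by cell matrices of 3 libraries (10x Genomics 3′ chemistry) held 31053 genes and whole-number UMI counts, deposited by the authors without normalization, with 2270, 2145 and 2532 barcodes and 8301228, 9373321 and 10359526 UMIs. Per the labels' processing notes, reads were aligned to mm10 with Cell Ranger 3.1 and STAR. Coordinates are those of GENCODE M21 on GRCm38. Of 6947 barcodes 5528 passed the gene and mitochondrial limits, and 1259 were dropped by the rule on barcodes shared between libraries. No doublet caller was run.

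For each library, the UMI counts of a class were added up and tested with edgeR 4.0.16 in R 4.3.3 (TMM, filterByExpr, quasi-likelihood test, Benjamini-Hochberg adjustment over all genes tested), with the library as a block because both sums came from the same library. SE is the log2 fold change divided by the square root of F. The steps were tested on simulated data with the same spread for every gene. Against CD4 T cells, 4 of 50 genes changed 2-fold, 24 of 50 changed 4-fold and 45 of 50 changed 16-fold were recovered. Against NK cells these were 0, 21 and 33 of 50. Unchanged genes made up 1.72% and 0% of the calls. DESeq2 1.42.0 was an alternative, as were other gates, depths and left-out libraries, 56 planned and 10 added after seeing the data. Thinning and intervals used Python 3.11.15.

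CPM and log2 ratios (prior 0.5 UMI) were computed from the deposited counts. Intervals cover counting error only. Members and the 24 gene lists were chosen with earlier results of these data known. Named genes were those of the lists and, among other genes called the same way in 3 libraries at a mean of at least 50 CPM, the 12 (CD4) or 8 (NK) with the largest fold change each way. For niacin the 8 each way with the largest smaller ratio and separate intervals were named. A comparison of effector-gated with naive-gated CD8 T cells was planned only for at least 10 cells of each in every library, which did not hold. Only 1 vehicle library was analysed here, and some listed genes are not reported here.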

Additional observations from a re-analysis of the deposited data

Results flagged for a closer look

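*Stx6*, a syntaxin of the trans-Golgi network, was higher than in vehicle 2 in the CD8 T cells of both niacin libraries, at 0, 41.6 and 29.5 CPM, and lower in the CD4 T cells of both. The mean log2 ratio of niacin to vehicle in CD4 T cells was -0.63, from -0.84 in niacin 1 and -0.42 in niacin 2. The opposite directions drew attention to it, and the difference between the classes was not tested. Both ratios rest on 1 vehicle library.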

How the results depend on the processing

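Among the alternatives tried, no named gene reversed its direction in either class comparison. Against CD4 T cells (147 calls, 63 higher and 84 lower), DESeq2 gave 40 (21 and 19), no replicate block 40 (19 and 21), no filter on low counts 228 (122 higher), a mitochondrial limit of 10% 74 (34 and 40) and gates set after thinning 62 (30 and 32). Leaving out 1 library gave 52 to 134 calls (28 to 69 higher, 24 to 65 lower). Against NK cells (232 calls, 120 higher and 112 lower), DESeq2 gave 117 (47 and 70), no replicate block 109 (38 and 71), no filter 202 higher, every shared barcode dropped 114 (56 and 58), and the deepest 5% of members left out 147 (69 higher). Leaving out 1 library gave 103 to 156 calls (48 to 63 higher, 55 to 93 lower), lowest without vehicle 2. All 40 calls of DESeq2 and all 40 of the fit without the block against CD4 T cells were among the 147. In the comparison of niacin against vehicle in CD8 T cells, lower genes numbered 354 and higher genes 179, 533 in all. A minimum of 50 UMIs gave 200 (59 and 141), a 3-fold limit 115 (45 and 70), the mean over cells 284 higher, and centering on the median, added after seeing the data, 295 and 229. Leaving out 1 niacin library gave 1049 to 1187 (338 to 371 higher, 678 to 849 lower). The cause of these moves was not tested, except that leaving out a niacin library asks only 1 ratio to pass. The number of CD8 T cells, between 104 and 175 under the other gates, stayed within 1.5 times 151. With 43 to 57 cells a library, a gene below about 12 CPM was under the limit of 3 UMIs.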

Other observations

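*Tcrg-C2*, a constant region of the γ chain of the T cell receptor (chromosome 13, 19304649 to 19307551, minus strand), was found in 10, 7 and 14 CD8 T cells of vehicle 2, niacin 1 and niacin 2, with 19, 13 and 49 UMIs. At full depth these were 23.3%, 12.3% and 27.5% of the CD8 T cells, against 3 of 643, 0 of 916 (exact binomial 95% upper limit 0.402%) and 1 of 1048 Csf1r+ cells and 1 CD4 T cell in each library. *Tcrg-C2* was not called higher than in NK cells: of 2 genes of unconventional T cells tested in that comparison, 0 were higher in CD8 T cells. Of the 31 CD8 T cells with *Tcrg-C2*, 23 also held *Trac*, 23 held *Cd8b1* and 21 held the variable segment *Trgv2*. Variable segments of the αβ receptor were rarely captured by the 3′ chemistry: *Trbv* segments gave 5, 17 and 21 UMIs and *Trav* segments 3, 29 and 25, so no clonal structure was read from them.

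The interferon response genes summed to 5383, 2778 and 4329 CPM in CD8 T cells, with *Isg15* at 196, 38.1 and 260 CPM, and 2 of the 21 (*Gbp2* and *Gbp7*) were past 2-fold lower in both niacin libraries. None of 10 MHC class I genes and none of 17 genes of T cell receptor signaling counted was past 2-fold either way. *Mcm5* and *Top2a* of 7 cell cycle genes, *Pfkp* of 13 glycolysis genes and *Nampt* of 6 genes of niacin and NAD metabolism were past 2-fold lower, with 25 of the 35 *Top2a* UMIs of vehicle 2 in 1 cell.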
